A study of Mus musculus with 12 samples.

Results

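Macrophage genes were followed in the inferior vena cava (IVC) of mice with an arteriovenous fistula (AVF) and of sham-operated mice. The 10 genes, of 55414 in the count table, were taken by symbol and not by their values: Cd68, Adgre1, Csf1r, Mrc1, Cd163, Lyve1, Trem2, Gpnmb, Ccr2 and Cx3cr1. All 10 were found, and all 10 passed the filter on low counts. RNA-seq was done on 12 wild-type C57BL/6J mice aged 10 wk, with 1 library per mouse. In the AVF group, 3 male and 3 female mice had a needle puncture that joined the infrarenal aorta to the IVC, and all of these fistulas were patent. In the sham group, 3 male and 3 female mice had the same operation without the puncture. Operations were done under isoflurane with buprenorphine as analgesic, and veins were taken on day 7. The tissue was the whole vein, so no value belongs to a sorted cell, and fewer cells of a type cannot be told apart from less RNA per cell.

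Macrophages are tissue phagocytes that arise from embryonic precursors or from blood monocytes, and their survival depends on signalling through CSF1R. Resident macrophages around vessels carry scavenger receptors such as CD163, CD206 and LYVE1, while monocytes enter tissue by way of CCR2 and patrol vessels with CX3CR1. In a vein exposed to arterial flow, macrophages are known to gather in the wall as it thickens and remodels. TREM2 and GPNMB mark macrophages that take up lipid or cell debris.

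Total counts were 15177881 to 22717423 per library. Expression is given as normalized CPM, counts scaled to the library size with TMM factors, and 3 counts corresponded to 0.127 to 0.324 normalized CPM, for counting error only. The study set samples #05 (male) and #09 (female) apart from the other 4 AVF, which it called nAVF, on the basis of their expression, and the labels do not give that split. It is therefore described here and not tested. Summed over 8 hepatocyte genes such as Alb, these libraries held 2812 and 8010 normalized CPM, against 0.669 to 5.21 in the other 10. Sample #07, a female AVF, had 46.0% of its counts in ribosomal RNA genes. Sample #11, a female AVF, had the most haemoglobin RNA, at 14654 normalized CPM over Hba-a1 and Hbb-bs against 2451 to 7511 in the other libraries.

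In the AVF group 5 of the 10 macrophage genes rose by edgeR's quasi-likelihood test at an adjusted p value under 0.05, and none fell. They were Cd68, Adgre1, Csf1r, Trem2 and Ccr2, and their fold changes ranged from 1.63 to 2.50. Of the 15912 genes tested, 8.63% rose and 5.13% fell by the same test. Trem2 was the only gene of the 10 to reach a 2-fold change and count as a DEG, as did 3.37% of all genes in that direction. Estimates were also above 0 for Mrc1, Cd163, Lyve1 and Cx3cr1, at 1.55-fold to 1.70-fold, but these did not pass. Gpnmb stood apart, with an estimate of 0.863-fold.

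How many genes passed depended on the test and on single mice. DESeq2 called 9 of the 10 higher, all but Gpnmb, against 12.4% of all genes. The exact test of edgeR called 7, against 9.43% of all genes. In the quasi-likelihood test 9 of the 10 had an unadjusted p under 0.05 and a higher level in AVF, against 16.4% of all genes. Without samples #05 and #09 the quasi-likelihood test called 4, with Ccr2 lost, against 5.74% of all genes called higher. Over the 12 analyses that each left out 1 library, 3 to 7 genes were called, against 8.36% to 16% of all genes in either direction. Adgre1 and Csf1r were called in all 12 of these, Cd68 in 11, and Trem2 and Ccr2 in 7 each.

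**Figure D1:**
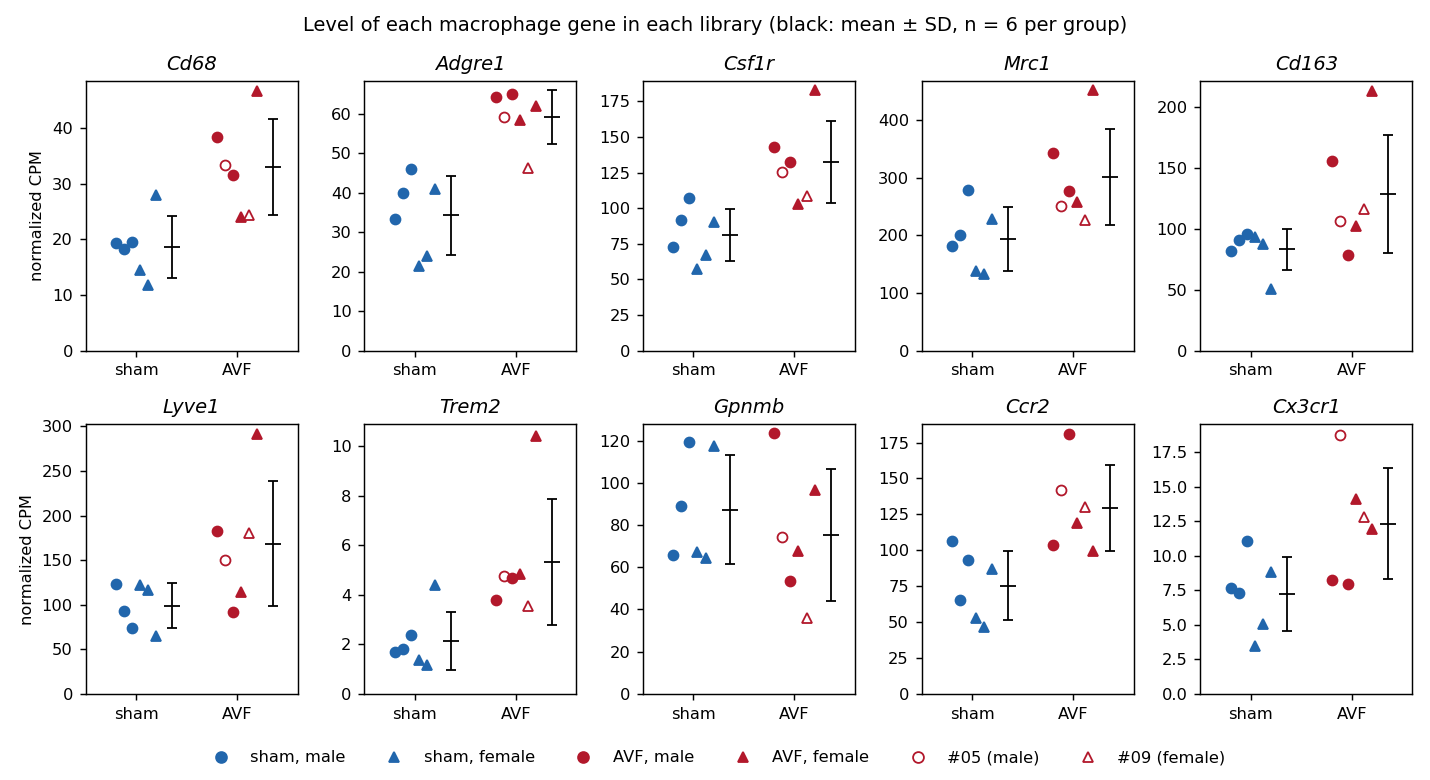
Normalized CPM (vertical axis, from 0) of each of the 10 macrophage genes in the 6 sham and 6 AVF libraries, with circles for males, triangles for females, open symbols for samples #05 and #09, and black bars for mean ± SD. Every AVF library lies above every sham library for Adgre1 and for no other gene of the 10, and the groups share most of their range for Gpnmb.

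The pan-macrophage genes rose together. Cd68 encodes a lysosomal glycoprotein of phagocytes and Adgre1 the F4/80 antigen of mature mouse macrophages. Csf1r encodes the receptor for CSF1 and IL-34, on which most tissue macrophages depend. All 3 rose, by 1.63-fold to 1.78-fold.

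Cd68 (ENSMUSG00000018774) lies on chromosome 11 of GRCm39, from 69555037 to 69557067 on the minus strand. In the AVF libraries its level was 24.1 at the lowest, 32.4 at the median and 46.7 normalized CPM at the highest, and in the sham libraries 11.8, 18.9 and 28.02. Only the sham sample #23 reached into the AVF range. Means were 33.04 ± 8.62 in AVF and 18.6 ± 5.54 in sham (SD, n = 6 each), with a log2 fold change of 0.83 (SE 0.21, adjusted p = 0.0238). Without sample #11, which had the highest level, the estimate was 0.71 and the adjusted p value 0.0501.

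Adgre1 (ENSMUSG00000004730) lies on chromosome 17 from 57665573 to 57790527, plus strand. Its levels were 46.3, 60.5 and 65.1 normalized CPM at the lowest, median and highest AVF library, and 21.4, 36.6 and 46.1 in the sham group. Adgre1 was the only gene of the 10 whose groups did not overlap, as was the case in this direction for 4.55% of all tested genes. The gap was narrow, between the AVF sample #09 at 46.3 and the sham sample #18 at 46.1. The log2 fold change was 0.79 (SE 0.18, adjusted p = 0.0149) and rested on means of 59.2 ± 6.84 and 34.3 ± 9.91.

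Csf1r (ENSMUSG00000024621) lies on chromosome 18. Its levels ran from 103 over a median of 129 to 183 normalized CPM in AVF, and from 57.6 over 81.6 to 107 in sham. The overlap came from the AVF sample #07 and the sham sample #18. With means of 133 ± 28.8 and 81.2 ± 18.5, the log2 fold change was 0.71 (SE 0.17, adjusted p = 0.0190).

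Without samples #05 and #09 the log2 fold changes were 0.93 for Cd68, 0.87 for Adgre1 and 0.80 for Csf1r, and all 3 were still called. A further 14 pan-macrophage genes, none of them among the 10, were examined. Of these, 11 rose and none fell, with a median log2 fold change of 0.78 against -0.01 over all tested genes. The lowest adjusted p values were those of C1qb and C1qa, which encode complement C1q chains, the integrin gene Itgam and the lysosomal membrane gene Laptm5. Their log2 fold changes were 0.89, 0.89, 0.78 and 0.83, with adjusted p values of 0.0031, 0.0042, 0.0038 and 0.0061. Summed over the 14 genes, every AVF library (1050 to 1646 normalized CPM) lay above every sham library (550 to 870). Without samples #05 and #09, 9 of the 14 were called.

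Neither ligand of CSF1R was called. Csf1 was at 69.8 ± 10.3 normalized CPM in AVF and 68.4 ± 14.5 in sham, a log2 fold change of 0.03 (adjusted p = 0.915). Il34 was at 5.00 ± 1.05 and 4.78 ± 0.937 (adjusted p = 0.847). Both were named after their values were seen. Of the 8 tested genes for CSF1 receptor ligands, related receptors and lineage factors, 2 rose: Csf2ra, a GM-CSF receptor subunit (log2 fold change 0.61, adjusted p = 0.0086), and Spi1, which encodes the macrophage factor PU.1 (0.83, adjusted p = 0.0252). With samples #05 and #09 left out, Csf2ra was called and Spi1 had an adjusted p value of 0.0687.

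**Figure D2:**
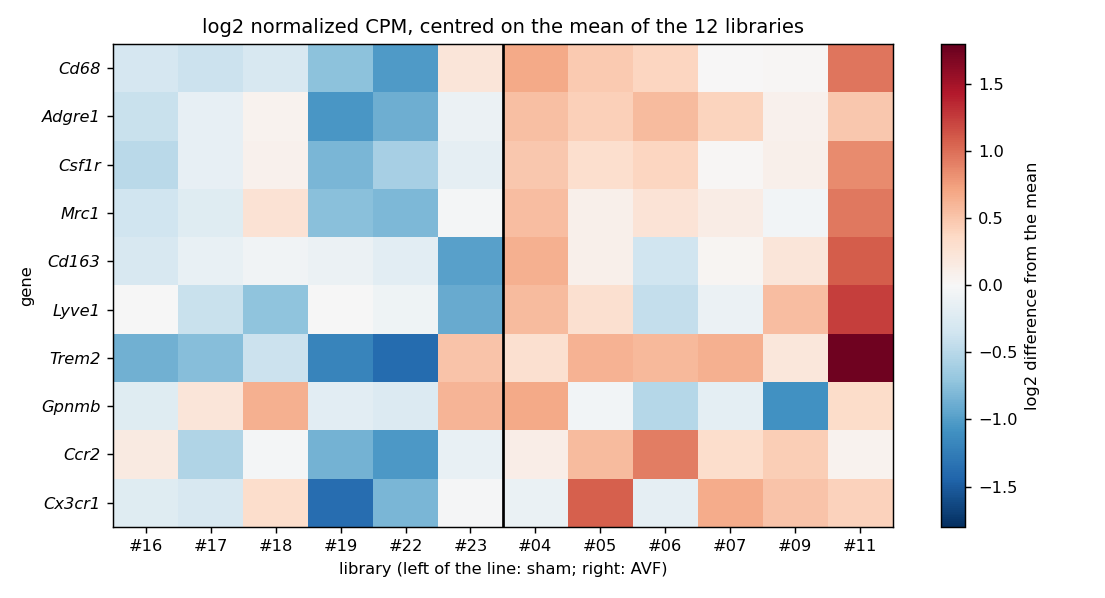
Log2 normalized CPM of the 10 macrophage genes (rows) in the 12 libraries (columns, sham left and AVF right of the line), each row centred on its mean, with red above and blue below the mean. Samples #19 and #22 are the lowest sham libraries for 7 of the 10 genes, sample #11 is the highest AVF library for 6, and the row of Gpnmb differs from the others.

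None of the scavenger receptors of resident macrophages passed the quasi-likelihood test, although all 3 had an unadjusted p under 0.05 and DESeq2 called all 3. Mrc1 encodes the mannose receptor CD206, Cd163 the receptor for haptoglobin-haemoglobin complexes, and Lyve1 a hyaluronan receptor found on resident macrophages and on lymphatic endothelium. Their estimates were 1.55-fold, 1.55-fold and 1.70-fold.

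Mrc1 (ENSMUSG00000026712, chromosome 2, 14234151 to 14336926, plus strand) had levels of 227, 267 and 451 normalized CPM at the lowest, median and highest AVF library and 133, 191 and 279 in sham. The sham samples #18 and #23 reached into the AVF range. AVF was higher by 0.64 on the log2 scale (SE 0.21, adjusted p = 0.0596), and the adjusted p value was 0.0477 without sample #09 and 0.03003 without sample #18.

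Cd163 (ENSMUSG00000008845, chromosome 6, 124281606 to 124307560, plus strand) ran from 78.3 over 112 to 214 normalized CPM in AVF and from 50.7 over 89.5 to 96.2 in sham. Its sham libraries lay close together except for sample #23, and the AVF sample #06 lay below all of them but that one. The estimate was 0.63 on the log2 scale (SE 0.23, adjusted p = 0.0814), with 0.0479 without sample #06. As a marker list, 4 Kupffer cell genes summed to 33.8 normalized CPM in sample #09, 8.35 in sample #11, 6.18 in sample #05 and 0.594 to 3.49 in the other libraries. Of these, Clec4f was at 0 in every sham library and in 4 AVF libraries, Vsig4 rose, and Cd5l and Marco were at or below 14.9 and 2.41 in every library. The order of the sums did not follow that of the 8 hepatocyte genes, which summed to 1.22 normalized CPM in sample #11. Without samples #05 and #09, 1 of the 2 tested genes of the Kupffer cell list was still called higher. Cd163 in sample #09 was 117, near the AVF median, and the part of liver macrophages in its level was not tested.

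Lyve1 (ENSMUSG00000030787, chromosome 7, 110448585 to 110462460, minus strand) ran from 91.7 over 166 to 291 normalized CPM in AVF and from 65.3 over 105 to 123 in sham. The AVF samples #06 and #07 lay within the sham range. The estimate was 0.77 on the log2 scale (SE 0.26, adjusted p = 0.0657), and the adjusted p value was 0.0383 without sample #06 and 0.0461 without sample #07. Lymphatic endothelium also carries LYVE1, and 2 of its 6 marker genes rose, Pdpn (0.87) and Flt4 (0.45). Prox1, its defining factor, had 0.27 (adjusted p = 0.374), and the sum of the 6 genes was 371 to 497 normalized CPM in AVF and 274 to 502 in sham. Their part in the level of Lyve1 was not tested.

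Of 12 other genes of resident macrophages, 3 rose and none fell, with a median log2 fold change of 0.42. Maf, a factor of resident macrophages, rose by 0.48 (adjusted p = 0.0263), Cbr2 by 0.61 (adjusted p = 0.0471) and the ficolin gene Fcna by 1.28 (adjusted p = 0.0475). F13a1, which encodes a clotting factor subunit found in macrophages, had 0.60 (adjusted p = 0.0658). When samples #05 and #09 were left out, the called genes were Maf, Cbr2 and F13a1, and Fcna had an adjusted p value of 0.0515.

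The lipid-associated genes parted. TREM2 is a lipid-sensing receptor that signals through TYROBP and SYK, and GPNMB is a transmembrane glycoprotein of late endosomes and lysosomes whose gene is a known target of the MiT/TFE factors. Trem2 had the largest fold change of the 10 and Gpnmb the only estimate below 0.

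Trem2 (ENSMUSG00000023992, chromosome 17, 48653429 to 48661175, plus strand) had the lowest levels, with 26 to 222 counts per library. In normalized CPM they were 3.57, 4.72 and 10.4 at the lowest, median and highest AVF library and 1.19, 1.76 and 4.41 in sham. Apart from sample #23, every sham library lay below every AVF library. Trem2 rose by 1.32 on the log2 scale (SE 0.36, adjusted p = 0.0299), with a 95% interval of 0.55 to 2.09. Leaving out any of samples #11, #16, #17, #19 or #22 raised the adjusted p value to 0.0539 to 0.0643, with estimates of 1.01 to 1.27, and leaving out sample #23 gave the highest estimate, 1.67.

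Gpnmb (ENSMUSG00000029816, chromosome 6, 49013426 to 49047863, plus strand) ran from 35.9 over 71.0 to 123 normalized CPM in AVF and from 64.5 over 78.2 to 119 in sham. The groups overlapped over most of their range, and sample #09 had the lowest level. Means were 75.3 ± 31.1 and 87.3 ± 25.7, with a log2 fold change of -0.21 (SE 0.27, adjusted p = 0.635). The 95% interval of -0.80 to 0.38 left out the 1.63-fold rise of Csf1r. Melanocytes also carry Gpnmb, and the melanocyte genes Pmel, Mlana and Dct were at or below 1.83 normalized CPM in every library.

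Of 10 further genes of the TREM2 pathway and of lipid-associated macrophages, 5 rose and none fell, with a median log2 fold change of 0.59. Syk rose by 0.76 (adjusted p = 0.0051), the tetraspanin gene Cd63 by 0.53 (adjusted p = 0.0214), Apoe by 0.60 (adjusted p = 0.0227) and the integrin gene Itgax by 1.05 (adjusted p = 0.0358). Tyrobp, the adaptor of TREM2 and named after its values were seen, rose by 0.60 (adjusted p = 0.0413). With samples #05 and #09 left out, Syk and Cd63 were called. Apoe had its highest levels in samples #09 and #05, at 1156 and 1002 normalized CPM, with sample #11 next at 989. The part of hepatocytes in the level of Apoe was not tested. Of 17 lysosomal genes, 5 rose and none fell, with a median of 0.23. Ctss, the cathepsin of antigen-presenting cells, rose by 1.09 (adjusted p = 0.0099), while the acid lipase gene Lipa and the cathepsin genes Ctsk and Ctsl rose by 0.37, 0.57 and 0.40. When samples #05 and #09 were left out, Ctss was called. The MiT/TFE genes Mitf, Tfeb and Tfe3 had 0.23, 0.13 and -0.00366, and none was called; they were named after their values were seen.

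Promoters are shown for Cd68 and Trem2, which rose, and for Gpnmb, which did not. They cover 250 bases before the transcription start, from the RefSeq annotation of GRCm38.p6, which held entries for 7 of the 10 genes. Capitals mark GAGGAA, the core bound by PU.1, or its reverse complement.
Cd68, chr11:69666171-69666420, minus strand: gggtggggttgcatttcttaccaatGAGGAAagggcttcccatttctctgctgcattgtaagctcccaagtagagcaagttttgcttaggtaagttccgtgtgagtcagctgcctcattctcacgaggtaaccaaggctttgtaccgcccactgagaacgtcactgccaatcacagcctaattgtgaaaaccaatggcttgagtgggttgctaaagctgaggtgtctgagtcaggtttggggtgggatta
Trem2, chr17:48346151-48346400, plus strand: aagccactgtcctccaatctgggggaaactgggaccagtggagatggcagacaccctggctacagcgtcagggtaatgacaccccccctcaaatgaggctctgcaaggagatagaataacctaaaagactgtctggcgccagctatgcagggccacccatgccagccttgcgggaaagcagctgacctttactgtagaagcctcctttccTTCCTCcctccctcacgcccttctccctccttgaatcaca
Gpnmb, chr6:49036268-49036517, plus strand: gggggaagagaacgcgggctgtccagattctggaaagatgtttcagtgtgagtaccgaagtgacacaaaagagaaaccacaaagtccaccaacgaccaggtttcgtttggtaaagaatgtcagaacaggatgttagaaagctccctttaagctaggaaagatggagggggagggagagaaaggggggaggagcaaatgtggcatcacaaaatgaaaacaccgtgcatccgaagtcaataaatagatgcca
GAGGAA was searched on both strands along with CACGTG, an E-box of the kind bound by MiT/TFE factors, and TATAAA. None of these motifs overlaps another. GAGGAA was found in 3 of the 7 promoters: in Cd68 at 225 to 220 bases before the start, in Trem2 at 40 to 35, and in Mrc1 at 3 places. Of 32851 promoters of the same length, 23.3% held it. Ccr2, which rose, had no GAGGAA, and neither did Cd163, Gpnmb or Cx3cr1, while Mrc1, which had it, did not pass. CACGTG and TATAAA were found in none of the 7, against 6.02% and 12.4% of all promoters. A match is a match of letters and shows no binding.

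The chemokine receptors had like estimates. Ccr2, the receptor for CCL2 on inflammatory monocytes, rose by 1.72-fold. Cx3cr1, the fractalkine receptor of patrolling monocytes and many resident macrophages, had an estimate of 1.70-fold and did not pass.

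Ccr2 (ENSMUSG00000049103, chromosome 9, 123901982 to 123913594, plus strand) ran from 99.3 over 125 to 181 normalized CPM in AVF and from 46.5 over 76.2 to 107 in sham. Samples #11 and #04 had its lowest AVF levels, just under that of the sham sample #16. Ccr2 rose by 0.78 on the log2 scale (SE 0.21, adjusted p = 0.0309). The adjusted p value was 0.0859 without samples #05 and #09, and 0.0547 to 0.0611 when any of samples #05, #06, #17, #19 or #22 was left out. The level of Ccr2 is uncertain, because its expected count was not whole in any of the 12 libraries (tolerance 0.011 counts), as is the case where reads are divided between genes.

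Cx3cr1 (ENSMUSG00000052336, chromosome 9, 119877749 to 119898945, minus strand) ran from 7.97 over 12.4 to 18.7 normalized CPM in AVF and from 3.45 over 7.49 to 11.1 in sham. Sample #05 had the highest level, and samples #04 and #06 lay within the sham range. Its estimate was 0.76 on the log2 scale (SE 0.28, adjusted p = 0.0835), and 0.54 without samples #05 and #09 (adjusted p = 0.253). Leaving out sample #18 gave an adjusted p value of 0.0467.

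Among 5 chemokines listed as ligands of these receptors, Ccl8 rose and no other passed. Whether CCL8 acts through either receptor in mice was not tested. Ccl8, a chemokine of tissue macrophages, was at 32.3 ± 8.53 normalized CPM in AVF and 11.1 ± 4.45 in sham, without overlap, a log2 fold change of 1.54 (SE 0.25, adjusted p = 0.0026). Ccl2, the main ligand of CCR2, had 0.77 (adjusted p = 0.140), and Ccl7 and Ccl12 had 0.68 and 0.39. Cx3cl1, the ligand of CX3CR1, had -0.17 (adjusted p = 0.670). Of 8 monocyte genes 1 rose, Vcan (1.37, adjusted p = 5.4e-04), which encodes a matrix proteoglycan also made by fibroblasts. The median of the 8 was -0.03, and Plac8 and Ace had -0.13 and 0.25.

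**Figure D3:**
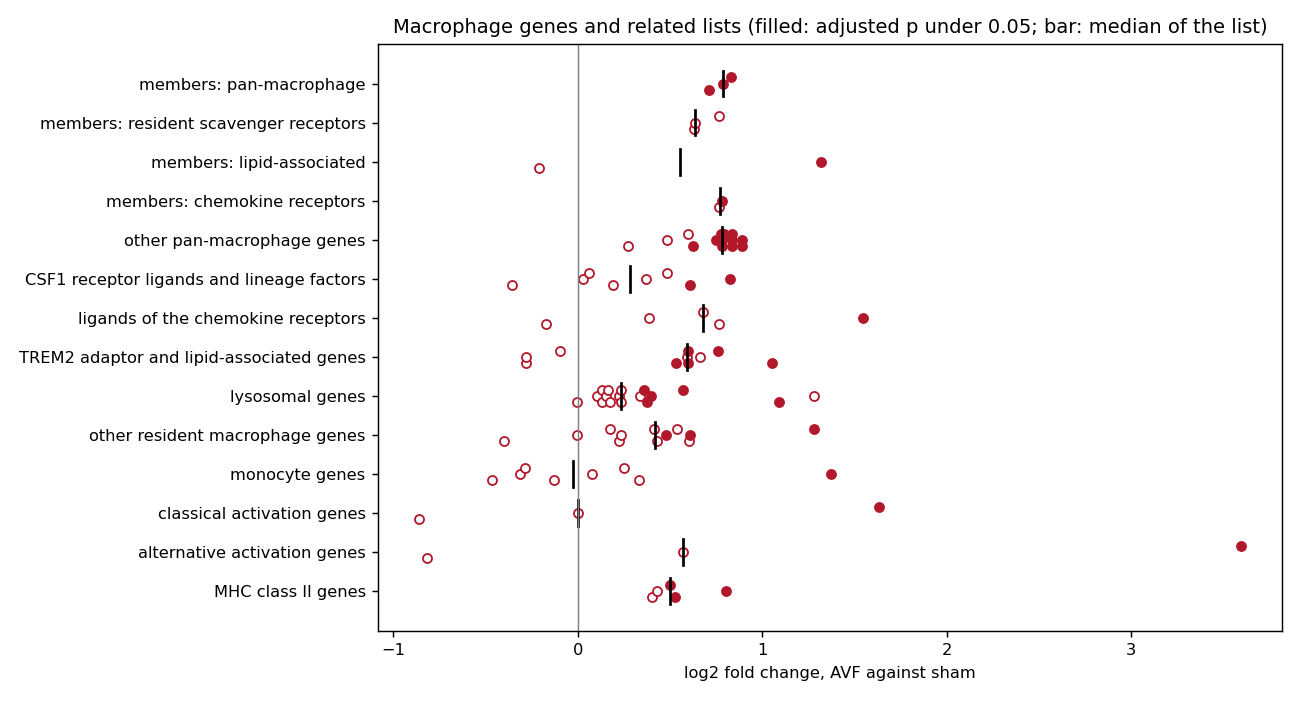
Log2 fold change of AVF against sham (horizontal axis) for each tested gene of the 4 groups of macrophage genes and of 10 related lists (rows), filled where the adjusted p value was under 0.05, with a bar at the median. The median of the other pan-macrophage genes is 0.78, that of the lysosomal genes 0.23 and that of the monocyte genes -0.03, and the point furthest to the right is Arg1.

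Activation lists held 5 classical and 4 alternative genes, of which 3 each passed the filter. In each list 1 gene was called, where 8.63% of all genes rose. Of 3 tested genes of classical activation, Ptgs2 rose (log2 fold change 1.63, adjusted p = 0.0406), with an adjusted p value of 0.0961 without samples #05 and #09, while Il1b had -0.86 (adjusted p = 0.373) and Nos2 -8.4e-05 (adjusted p = 0.9998). Of 3 tested genes of alternative activation, Arg1, which encodes an arginase also abundant in hepatocytes, rose by 3.60 (adjusted p = 0.0347). Arg1 was at 113 normalized CPM in sample #09 and 34.9 in sample #05, against 1.36 to 5.28 in the other libraries, and without these samples its adjusted p value was 0.388. Retnla had 0.57 (adjusted p = 0.0519) and Cd274 had -0.82 (adjusted p = 0.0717). Of 5 MHC class II genes, Ciita, Cd74 and H2-Ab1 rose, by 0.80, 0.50 and 0.53, and without samples #05 and #09 none did, although all 5 had unadjusted p values under 0.05 with these samples included. The proliferation genes Mki67 and Top2a rose by 1.81 each, and which cells carried them was not tested.

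Markers of neutrophils and dendritic cells gave no calls. None of 5 tested neutrophil genes was called by edgeR or DESeq2 or had an unadjusted p under 0.05, with a median log2 fold change of -0.82, a level summed over all 7 genes of the list of 27.7 to 50.5 normalized CPM in AVF and 15.3 to 125 in sham, and Ly6g at 0 in 10 libraries. None of 7 dendritic cell genes was called by either, with 1 at an unadjusted p under 0.05, a median of 0.11 and sums of 30.3 to 50.1 and 37.2 to 42.2.

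To ask which genes changed beyond the common rise, counts were also compared per count of Csf1r. On that scale Gpnmb fell by 0.93 on the log2 scale (SE 0.22, adjusted p = 0.0047), and none of the other 8 macrophage genes was called. Because Csf1r itself rose, 67.7% of all genes fell and 3.08% rose on this scale, with a median log2 fold change of -0.73. Gpnmb lay near that median, and the estimates of the other 8 lay between -0.17 and 0.60.

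**Figure D4:**
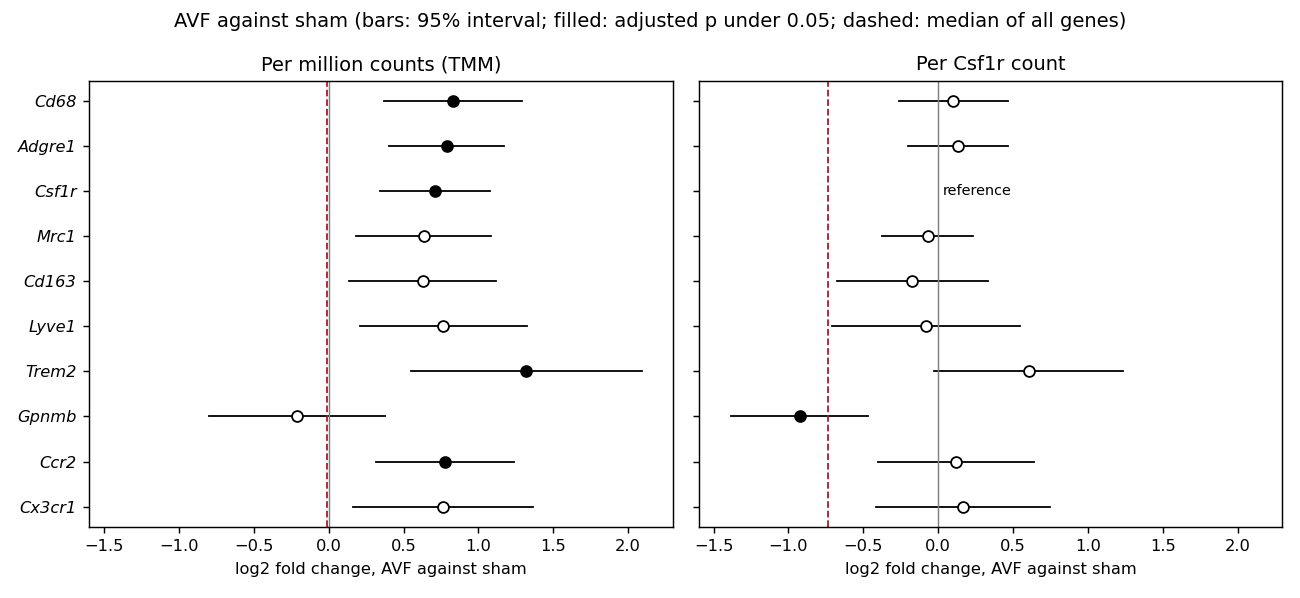
Log2 fold change of AVF against sham (horizontal axis) with its 95% interval for each macrophage gene, in normalized CPM on the left and per Csf1r count on the right, filled where the adjusted p value was under 0.05, with a dashed line at the median of all tested genes. Gpnmb lies near the dashed line on both sides, at -0.21 and -0.93, and all other macrophage genes lie to the right of it.

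The ratio of Gpnmb to Csf1r counts was 0.331, 0.560 and 0.863 at the lowest, median and highest AVF library and 0.909, 1.04 and 1.295 in sham. The groups did not overlap, as was the case in this direction for 17.1% of all genes, and the highest AVF ratio was that of sample #04. Per count of Adgre1 in place of Csf1r, Gpnmb fell by 1.05 (adjusted p = 0.0021), as 76.7% of all genes fell. Per Csf1r without samples #05 and #09 its fall was 0.80 (adjusted p = 0.0139), and 63.7% of all genes fell.

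Trem2 leaned the other way. Its ratio to Csf1r was 0.0264, 0.0366 and 0.0569 at the lowest, median and highest AVF library and 0.0177, 0.0228 and 0.0487 in sham. Sample #23 was the only sham library above the lowest AVF ratio. The estimate was 0.60 on the log2 scale (SE 0.29, 95% interval -0.02 to 1.23, adjusted p = 0.0767), and without sample #23 it was 0.89 (adjusted p = 0.0128).

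The 95% intervals per Csf1r were -0.26 to 0.46 for Cd68, -0.20 to 0.47 for Adgre1 and -0.37 to 0.23 for Mrc1. They were wider for the other genes, at -0.68 to 0.33 for Cd163, -0.71 to 0.55 for Lyve1, -0.40 to 0.64 for Ccr2 and -0.42 to 0.75 for Cx3cr1. A change of 2-fold lay outside all of these intervals. For Mrc1, the nearest gene to Csf1r in this respect, AVF ratios were 1.99 to 2.49 and sham ratios 1.98 to 2.60.

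**Figure D5:**
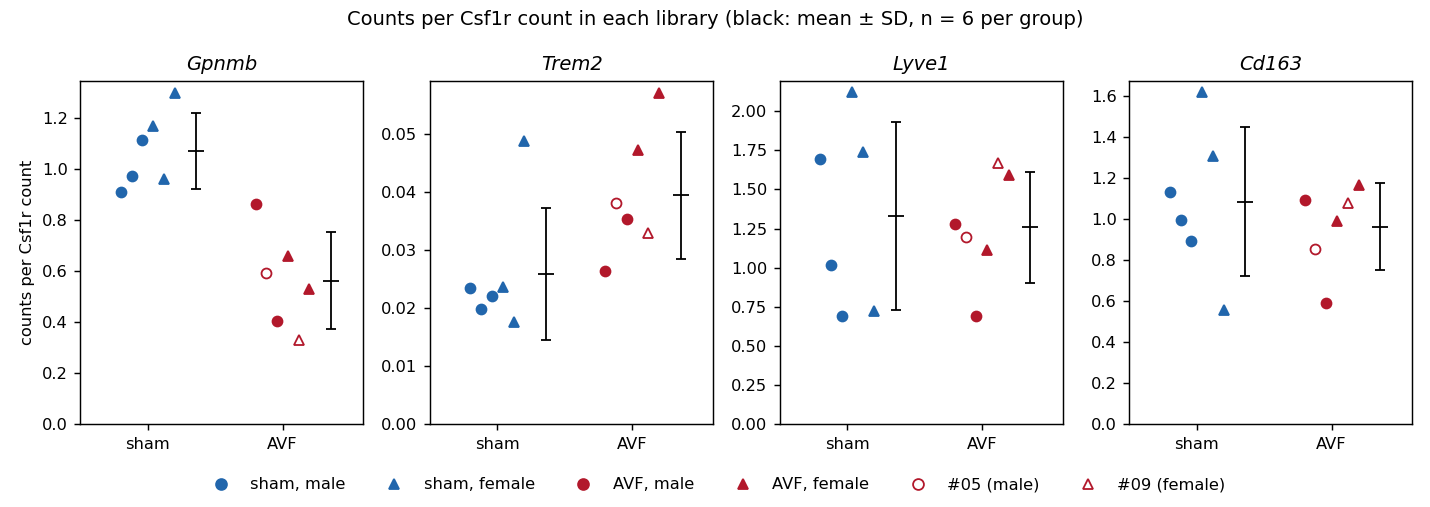
Counts per Csf1r count (vertical axis, from 0) of Gpnmb, Trem2, Lyve1 and Cd163 in the 6 sham and 6 AVF libraries, with circles for males, triangles for females, open symbols for samples #05 and #09, and black bars for mean ± SD. All AVF ratios of Gpnmb, up to 0.863, lie below all sham ratios, from 0.909, while the sham ratios of Lyve1 spread from 0.692 to 2.12.

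Sham veins differed among themselves in Lyve1 and Cd163. The ratio of Lyve1 to Csf1r was 0.692 in sample #18, 0.721 in #23, 1.02 in #17, 1.70 in #16, 1.74 in #22 and 2.12 in #19. The ratio of Cd163 was lowest in sample #23, at 0.559, and highest in #19 and #22, at 1.62 and 1.31. Sample #23 had the highest sham levels of Cd68 and Trem2 together with the lowest of Cd163 and Lyve1. In sham, brown fat genes such as Ucp1 summed to 786 normalized CPM in sample #16, 1437 in #19 and 786 in #22, but to 90.9 in #17, 184 in #18 and 420 in #23. In AVF this sum of 5 genes was 13.7 to 197, and 3 of the 5 fell. Samples #19 and #22 had the lowest sham levels of 7 macrophage genes. Of these genes, Adgre1, Csf1r, Mrc1 and Trem2 were next lowest in sample #16. In that sample Cd68 and Cx3cr1 lay above the sham median, and Ccr2 had its highest sham level. The part of adipose tissue in the levels of these genes was not tested.

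Levels between genes were compared per kilobase of exon, with the exons of all annotated transcripts of a gene joined. The joined length was 4946 bases for Trem2 and 1369 for Cd68. It can exceed the length of the RNA present in the vein, so the order of the genes is approximate. In AVF veins the order of mean levels was Lyve1 (40.5 normalized CPM per kilobase), Mrc1 (38.4), Cd68 (24.1), Cd163 (23.3), Ccr2 (19.1), Csf1r (18.0), Adgre1 (16.8), Gpnmb (11.4), Cx3cr1 (2.64) and Trem2 (1.08). In sham veins it was Mrc1 (24.7), Lyve1 (23.8), Cd163 (15.1), Cd68 (13.6), Gpnmb (13.2), Ccr2 (11.1), Csf1r (11.0), Adgre1 (9.73), Cx3cr1 (1.55) and Trem2 (0.433). Neighbours in both orders overlapped between libraries except at the step down to Cx3cr1.

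Profiles over the 12 libraries were compared by the root mean square distance of centred log2 CPM, which includes the difference between the groups. Nearest to Csf1r were Unc93b1, an endosomal chaperone of Toll-like receptors (distance 0.09), Cercam (0.13) and Mrc1 (0.14), and Csf1r was in turn among the 3 nearest to Mrc1, with Ptafr (0.14) and C1qc (0.16). Nearest to Cd68 were the leukocyte genes Fcer1g (0.16), Laptm5 (0.17) and Cd53 (0.19), and nearest to Adgre1 were Cd48 (0.12), Fcrl2 (0.16) and Adcy7 (0.17). Nearest to Ccr2 were Cybb, which encodes a subunit of the phagocyte oxidase (0.19), Clec4a3 (0.22) and Ptprc (0.22). For Trem2 the nearest was Ctss (0.30), followed by Dctd (0.32) and Cenpp (0.33). Cd163 and Lyve1 shared Tnfrsf12a among their 3 nearest (0.24 and 0.25), beside Egfr (0.20) and Cd209f (0.24) for Cd163 and Fkbp5 (0.23) and Pals2 (0.24) for Lyve1. Nearest to Gpnmb were Micall2 (0.28), Bank1 (0.30) and Tgfbr3 (0.31), and nearest to Cx3cr1 were AA414768 (0.28), Mex3a (0.30) and Tifab (0.33).

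Female and male mice were compared within each operation. None of the 10 genes was called in AVF or in sham veins, by edgeR or DESeq2, and none had an unadjusted p under 0.05, while edgeR called 0.0316% of all genes in AVF and 0.0818% in sham, with 3.3% and 9.23% at an unadjusted p under 0.05. In AVF the log2 fold changes of female over male ran from -0.34 for Gpnmb to 0.51 for Trem2. In sham they ran from -0.59 for Cx3cr1 to 0.23 for Trem2. With 3 mice per sex the 95% intervals were wide, for example -1.39 to 0.21 for Cx3cr1 in sham and -0.47 to 1.48 for Trem2 in AVF.

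The effect of the fistula was also tested for a difference between the sexes. The interaction term was called for none of the 10 genes by edgeR or DESeq2, with none at an unadjusted p under 0.05, and for 0 of 22163 genes by edgeR and 5 by DESeq2, with 1069 genes (4.82%) at an unadjusted p under 0.05 in edgeR. Estimates ran from -0.23 for Gpnmb to 0.70 for Cx3cr1 on the log2 scale, the latter with a 95% interval of -0.46 to 1.87. For Csf1r the estimate was 0.28, with an interval of -0.47 to 1.02.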

How the data were processed

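RNA-seq of the IVC of 12 mice was analysed, with group and sex from the sample labels. Reads were cleaned by the authors with PRINSEQ and Trimmomatic 0.39 and mapped with STAR 2.7.7a to GRCm39. The authors deposited RSEM 1.3.3 expected counts per gene, estimated per library with a reverse-stranded setting and not normalized (versions from the submitters' processing notes). RSEM divides reads between genes of similar sequence. Names, coordinates and exon lengths came from GENCODE M39.

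Counts were rounded, filtered at more than 1 CPM in at least 2 samples, scaled by TMM and tested with the quasi-likelihood test of edgeR 4.0.16 in R 4.3.3. Benjamini-Hochberg adjustment covered every gene tested, and an adjusted p value under 0.05 was a call. Per Csf1r, its count replaced the library size. Comparisons involving sex kept genes with more than 12 counts in all. SE values came from the F statistic. Distances used a prior count of 1. Scripts were tested on simulated data.

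Alternatives were the exact test of edgeR, DESeq2 1.42.0, other size factors and filters, and sex as a covariate. Others were the replicate number within each sex as a block, Adgre1 as reference, AVF without samples #05 and #09, and each library left out. The genes, lists and tests were chosen with earlier results of these data known. Named were all 10 genes, up to 4 genes of each list with the lowest adjusted p values, marker genes whose level stands beside a result, the 3 nearest profiles of each gene, and genes stated as named after their values were seen. Some genes that this rule names are not reported here.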

Additional observations from a re-analysis of the deposited data

Results flagged for a closer look

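Among 20 tests of a library far from the others, 1 for each gene and operation, 3 passed the 95% limit for 6 samples, a gap of 0.625 of the range on the log2 scale, and chance alone would give about 1. Adgre1 in the AVF sample #09 was low, at 46.3 normalized CPM, with a gap of 0.679 of the range to the next library. Cd163 in the sham sample #23 was low, at 50.7 normalized CPM, with a gap of 0.753. Trem2 in the AVF sample #11 was high, at 10.4 normalized CPM, with a gap of 0.712, and without this library the log2 fold change of Trem2 was 1.01 (edgeR, adjusted p = 0.0612).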

How the results depend on the processing

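The count of macrophage genes called between AVF and sham was 5 in the main test and 9 with DESeq2. With each library left out in turn it ranged from 3 to 7, and the count at 2-fold or more from 0 to 1. Per Csf1r, 1 to 2 genes were called, and 0 to 1 at 2-fold or more. With all libraries in, 22.6% of all genes were called lower and 2.46% higher per Csf1r at 2-fold or more. With Adgre1 as reference in place of Csf1r, 1 gene, Gpnmb, was called lower at 2-fold or more. So were 36.6% of all genes with that reference, and Ccr2 changed sign to -0.0185. Without samples #05 and #09, Cx3cr1 per Csf1r changed sign to -0.14. With libraries left out, Lyve1 per Csf1r ranged from -0.21 to 0.10. None of these changes of sign concerned a called value, and the causes were not tested.

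Of the log2 fold changes between the sexes, none of them called, those that changed sign with a library left out ranged in AVF from -0.53 to 0.0451 for Cd68, -0.36 to 0.12 for Csf1r, -0.28 to 0.28 for Mrc1, -0.075 to 0.63 for Cd163, -0.0963 to 0.79 for Trem2, -0.72 to 0.0485 for Gpnmb and -0.0736 to 0.66 for Cx3cr1, in sham from -0.53 to 0.14 for Cd68, -0.37 to 0.0296 for Cd163, -0.0925 to 0.32 for Lyve1, -0.61 to 0.54 for Trem2 and -0.45 to 0.0944 for Gpnmb, and in the interaction from -0.48 to 0.39 for Cd68, -0.0559 to 0.48 for Csf1r, -0.0475 to 0.68 for Lyve1, -0.36 to 1.11 for Trem2 and -0.63 to 0.20 for Gpnmb.

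The labels number the mice within each sex and operation, and mice of the same sex and replicate number formed a block. With this block, 6 macrophage genes were called higher in AVF, Mrc1 being added (adjusted p = 0.0260), against 8.21% of all genes. Per Csf1r 2 were called, Trem2 being added as higher (log2 fold change 0.64, adjusted p = 0.0317), where 2.76% of all genes were higher and 72.8% lower. The block changed no other call of the 10 genes in these comparisons or in the interaction. AVF and sham mice of the same sex and replicate number correlated between -0.133 and 0.253. Of 6 AVF samples, 2 correlated best with the sham sample of their own sex and replicate number. These numbers were therefore not taken to pair the mice. The depth limits Trem2 most, with as few as 26 counts in a library.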
